A study of Mus musculus with 6 samples.

Results

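C1q is the recognition protein of the classical complement pathway, and 3 genes, C1qa, C1qb and C1qc, encode its chains. They were chosen by gene symbol and are 3 of 55291 rows in the deposited table. Macrophages, here called tumour-associated macrophages (TAM), came from liver tumours of mice with hepatocellular carcinoma. The 6 libraries fall into 2 groups, 3 labelled TREM2+ and 3 labelled TREM2-, for TREM2, a lipid-sensing receptor of myeloid cells. The labels name no strain, sex, age, tumour model or treatment and do not say how the cells were sorted. Nor do they state if each replicate is its own animal, and the p-values thus measure only the spread between these libraries, which may be technical.

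Each C1q molecule is built from equal numbers of A, B and C chains, which wind around each other in a collagen-like stalk and end in globular heads. The heads bind antibody complexes, dying cells and other targets, and the proteases C1r and C1s, held by the stalks, then cleave C4 and C2. Most complement proteins in blood are made by hepatocytes, whereas C1q is made mainly by macrophages and dendritic cells. Resident macrophages of tissues are known for high C1q, and freshly recruited monocytes for little.

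The genes lie side by side on chromosome 4 of the mm10 build, all on the minus strand, within 18675 bases (136880129 to 136898803). In the direction of transcription C1qa comes before C1qc and C1qb. C1qa (ENSMUSG00000036887.5) spans 136895917 to 136898803, C1qc (ENSMUSG00000036896.5) spans 136889804 to 136893065, and C1qb (ENSMUSG00000036905.8) spans 136880129 to 136886187. Each has a protein-coding transcript of 3 exons, with coding sequences of 735, 759 and 738 bases for C1qa, C1qb and C1qc.

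Because the 3 genes moved together, as described below, the stretches before their starts are shown where RefSeq's promoter table for GRCm38.p6 holds them. It held C1qb and C1qc, and C1qa did not match. The C1qb stretch is the 250 bases before the RefSeq start (chr4:136886201-136886450, minus strand). For C1qc only the 99 bases upstream of the GENCODE start are shown (chr4:136893066-136893164, minus strand), since the other 151 lie in its annotated first exon. Capitals mark matches on either strand to TGCTGA and GCTGAC, 2 overlapping stretches of the recognition core of MAF factors that share 5 bases, and to GAGGAA, a purine box of the kind bound by the myeloid factor PU.1.
C1qb: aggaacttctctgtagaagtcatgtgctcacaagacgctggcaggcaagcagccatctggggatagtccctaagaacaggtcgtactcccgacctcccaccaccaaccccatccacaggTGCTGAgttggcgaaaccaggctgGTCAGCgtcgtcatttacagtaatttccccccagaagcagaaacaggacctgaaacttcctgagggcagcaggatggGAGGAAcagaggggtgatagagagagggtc
C1qc: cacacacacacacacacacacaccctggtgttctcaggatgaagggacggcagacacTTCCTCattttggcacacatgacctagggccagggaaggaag

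Over the full 250 bases, both C1qb and C1qc held 1 match to GCTGAC and 1 to GAGGAA, and C1qb also held 1 to TGCTGA. The C1qc match to GCTGAC lies 128 to 123 bases before its RefSeq start, in the part not shown. Of 32851 mouse promoters of the same length, 12.9% held GCTGAC, 23.3% GAGGAA and 16.1% TGCTGA. Neither gene held the interferon-stimulated response element, which 2.98% of promoters held, or TATAAA, the TATA box, which 12.4% held. These matches describe the letters only, and no binding was measured.

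The libraries were read at 11493461 to 19929829 recovered reads. TPM below means the deposited length-scaled value after each library was rescaled to a total of 1000000. Transcripts of a repeat family of 12 genes around Gm10800 took 0.427% to 24.6% of the TPM, most of it in both libraries numbered 3, so values without that family are given for C1q as well. The pan-macrophage genes Cd68 and Csf1r were abundant in every library, at 1169 to 2081 TPM and 172 to 390.0 TPM. What share of the cells in either group were macrophages was not tested. Genes of neutrophils were abundant too, with a summed level of 16021 to 19858 TPM in the TREM2+ and 19332 to 22441 TPM in the TREM2- libraries. In such bulk libraries, fewer cells of a type and less RNA per cell cannot be told apart.

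Transcripts of all 3 C1q chains were more abundant in the TREM2+ libraries, by 6.30-fold to 6.54-fold, and no TREM2- library reached the level of any TREM2+ library. Together the 3 genes made up 1.12%, 1.24% and 0.954% of the TPM in TREM2+ replicates 1, 2 and 3. In TREM2- replicates 1, 2 and 3 they made up 0.129%, 0.150% and 0.254%. The means were 1.10% ± 0.141 against 0.178% ± 0.0666 (SD, n = 3). In reads, C1q accounted for 1 in 140 to 1 in 161 of those in the TREM2+ libraries and for 1 in 556 to 1 in 1365 of those in the TREM2- libraries.

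C1qa, the A chain, stood at 2309.8, 2681 and 2069.9 TPM in TREM2+ replicates 1, 2 and 3 and at 303, 268 and 561 TPM in TREM2- replicates 1, 2 and 3. The lowest TREM2+ library was 3.69-fold above the highest TREM2- library. The means were 2353 ± 308 and 377 ± 160.4 TPM (SD, n = 3), and the log2 fold change was 2.71 ± 0.30 (SE), with an adjusted p of 0.00502 in limma. Errors after a log2 fold change are SEs throughout.

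C1qb, the B chain, was the most abundant of the 3 in every library. It stood at 6284, 6939 and 5287 TPM in TREM2+ replicates 1, 2 and 3 and at 699.98, 857 and 1409.8 TPM in TREM2- replicates 1, 2 and 3. The lowest TREM2+ library was 3.75-fold above the highest TREM2- library. The log2 fold change was 2.695 ± 0.298, with an adjusted p of 0.00502 in limma. By TPM, C1qb ranked 20th to 24th among all genes in the TREM2+ libraries and 58th to 156th in the TREM2- libraries.

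C1qc, the C chain, stood at 2623, 2731 and 2184 TPM in TREM2+ replicates 1, 2 and 3 and at 291, 377 and 566 TPM in TREM2- replicates 1, 2 and 3. The lowest TREM2+ library was 3.86-fold above the highest TREM2- library. The log2 fold change was 2.66 ± 0.28, with an adjusted p of 0.00439 in limma. All 3 genes thus passed the threshold of 0.05, as did 2.05% of the 13788 genes tested in the same direction, while 0.37% passed in the other. Groups without overlap, TREM2+ above TREM2-, were found in 9.07% of the genes tested, and the reverse in 7.62%. A larger log2 fold change than that of C1qa was found for 14 genes, and than that of C1qc for 18, with C1qa and C1qb among these.

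**Figure D1:**
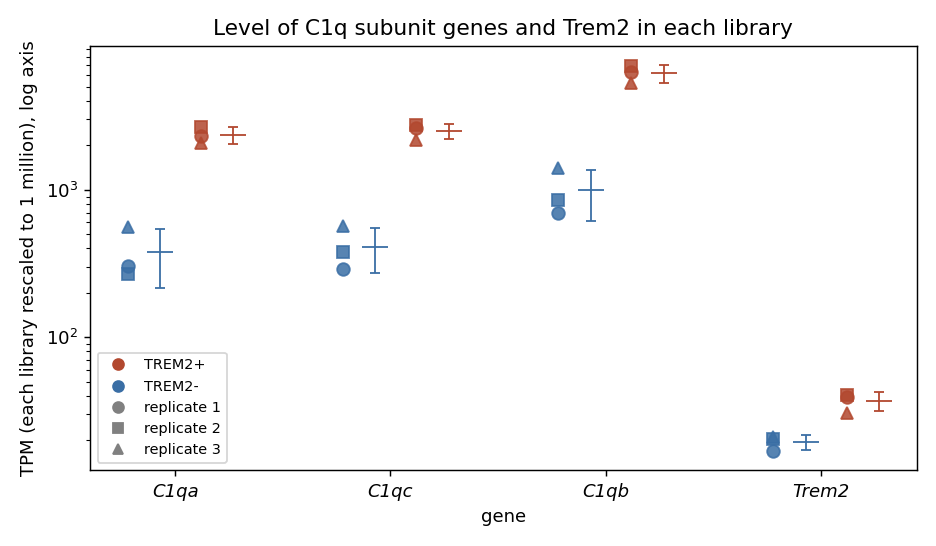
TPM of the C1q genes and of Trem2 in each library on a log axis, with the group mean and SD beside the points (n = 3). For each C1q gene the 3 TREM2+ libraries lie above the 3 TREM2- libraries, and TREM2- replicate 3 (triangle) is the highest of its group.

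The groups differed in spread as well as in level. The coefficient of variation of the 3 genes lay between 11.5% and 13.5% over the TREM2+ libraries and between 34.3% and 42.5% over the TREM2- libraries. The wider spread came with TREM2- replicate 3, which had the highest level of all 3 genes in its group. Left out, the log2 fold changes of C1qa, C1qb and C1qc rose to 3.03, 2.98 and 2.91. When the repeat family was left out before rescaling, that library lay higher still, with C1qb at 1869.7 TPM against 703 and 985 TPM in TREM2- replicates 1 and 2. The TREM2+ libraries then stood at 6329, 7308 and 6408 TPM for C1qb, and the log2 fold changes of the 3 genes were 2.63, 2.61 and 2.57. Without both libraries numbered 3 the log2 fold changes were 3.12, 3.09 and 3.01, but none passed in limma, with adjusted p-values of 0.109, 0.121 and 0.109.

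Trem2 (ENSMUSG00000023992.14, plus strand of chromosome 17, 48346401 to 48354147) checks the labels, and the difference in C1q was larger than that in Trem2 itself. Trem2 stood at 39.6, 40.8 and 30.7 TPM in TREM2+ replicates 1, 2 and 3 and at 16.9, 20.5 and 21.1 TPM in TREM2- replicates 1, 2 and 3. The groups did not overlap, but its log2 fold change of 0.89 ± 0.22 missed the threshold (adjusted p = 0.0855, limma). The log2 ratio of summed C1q to Trem2 was 8.22 ± 0.0678 in the TREM2+ and 6.45 ± 0.393 in the TREM2- libraries (SD, n = 3). The difference of 1.77 ± 0.23 had p = 0.1 in an exact two-sided permutation test, the smallest that 3 against 3 libraries allow. This ratio was added after the data were seen.

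The balance between the subunits within a library does not depend on how that library is scaled. C1qb exceeded C1qa by 2.72-fold, 2.59-fold and 2.55-fold in TREM2+ replicates 1, 2 and 3 and by 2.31-fold, 3.20-fold and 2.51-fold in TREM2- replicates 1, 2 and 3. C1qc over C1qa came to 1.14, 1.02 and 1.06 in the TREM2+ libraries and to 0.960, 1.41 and 1.01 in the TREM2- libraries. C1qb over C1qc came to 2.40, 2.54 and 2.42 in the TREM2+ libraries and to 2.41, 2.27 and 2.49 in the TREM2- libraries. For each of the 3 ratios the groups overlapped, for the 2 ratios over C1qa through TREM2- replicate 2 alone.

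The group difference in the log2 ratio, TREM2+ minus TREM2-, was -0.02 ± 0.14 for C1qb over C1qa, -0.05 ± 0.18 for C1qc over C1qa and 0.04 ± 0.05 for C1qb over C1qc (SE). Exact two-sided permutation tests gave p = 1, p = 1 and p = 0.5, each with an adjusted p of 1 over the 3 ratios. Single pairs of a TREM2+ and a TREM2- library differed in C1qb over C1qa by between -0.33 and 0.24, in C1qc over C1qa by between -0.47 and 0.24, and in C1qb over C1qc by between -0.06 and 0.16. With 3 against 3 libraries the smallest possible p is 0.1, so no difference in subunit balance of any size could have passed 0.05, and these ranges describe the spread alone.

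TREM2- replicate 2 set most of the width of the ranges that involve C1qa. There C1qa made up 17.8% of the summed C1q level, against 20.6% to 23.4% in the other 5 libraries. Its log2 ratio of C1qb to C1qa was 1.68 and that of TREM2- replicate 1 was 1.21, while counting error alone gives an SE of 0.0361 and 0.0324 for them. The SD of this ratio was 0.048 over the TREM2+ and 0.244 over the TREM2- libraries on the log2 scale. C1qa rested on 2076 reads in TREM2- replicate 2, so the low share is beyond counting error for that library. Without it the differences for C1qb over C1qa and C1qc over C1qa became 0.12 and 0.12, with p = 0.1 and p = 0.2 in the exact permutation test, where 3 against 2 libraries cannot go below 0.1. Every TREM2+ library then lay above both remaining TREM2- libraries in both ratios.

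**Figure D2:**
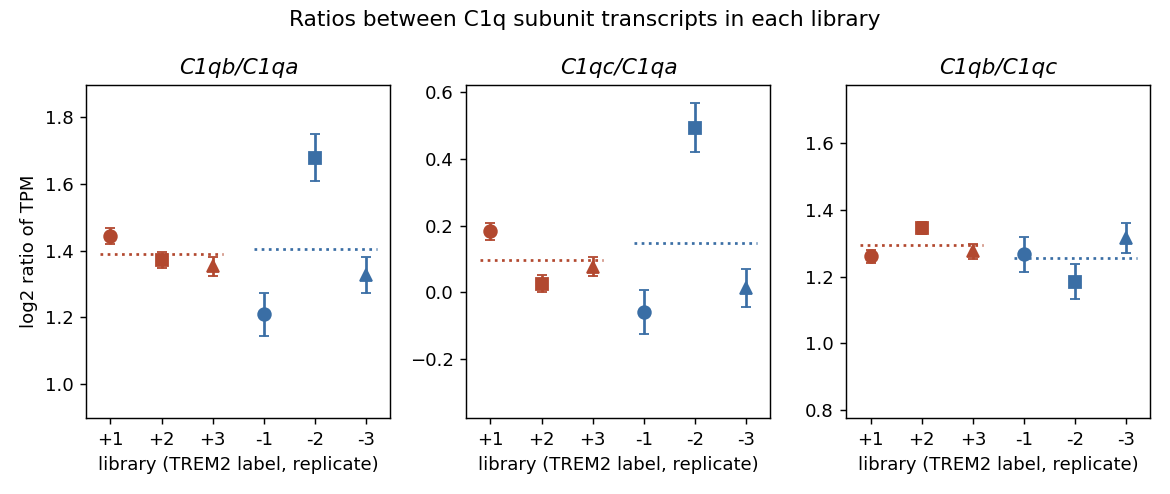
Log2 ratio of TPM between C1q subunits in each library, with 95% counting intervals from recovered reads and dotted group means. The groups overlap in each panel, and TREM2- replicate 2 stands highest, at 1.68 and 0.49, in the panels with C1qa.

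The distance between the subunits in level depends on the length used for C1qc. The deposited value of C1qc gives whole reads, within 0.01 read, in 6 of 6 libraries when multiplied by 1931 bases, the exon length of the whole gene, and in 0 of 6 with the 1203 bases of its coding transcript. The extra 728 bases belong to C1qc-202, an annotated non-coding transcript of 946 bases that runs into the intron before the last exon. C1qa and C1qb have a single transcript each, of 1040 and 1088 bases. The level of C1qc is therefore divided by a length 1.61-fold that of its messenger RNA.

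Per length of the coding transcript, C1qc stood at 4210 (4209.9), 4383 and 3506 TPM in TREM2+ replicates 1, 2 and 3 and at 467, 605 and 909 TPM in TREM2- replicates 1, 2 and 3. On that scale C1qc was 1.54-fold to 2.26-fold above C1qa in every library, where the deposited lengths put the 2 genes near the same level. C1qb over C1qc fell to between 1.42 and 1.58. The shares of C1qa, C1qb and C1qc in the summed level then averaged 18.6%, 48.9% and 32.5% over the 6 libraries, against 21.2%, 55.7% and 23.0% (23.05%) with the deposited lengths. The differences between the groups are the same on both scales, since the length of a gene is the same in each library. How many reads came from the non-coding transcript was not analysed here.

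**Figure D3:**
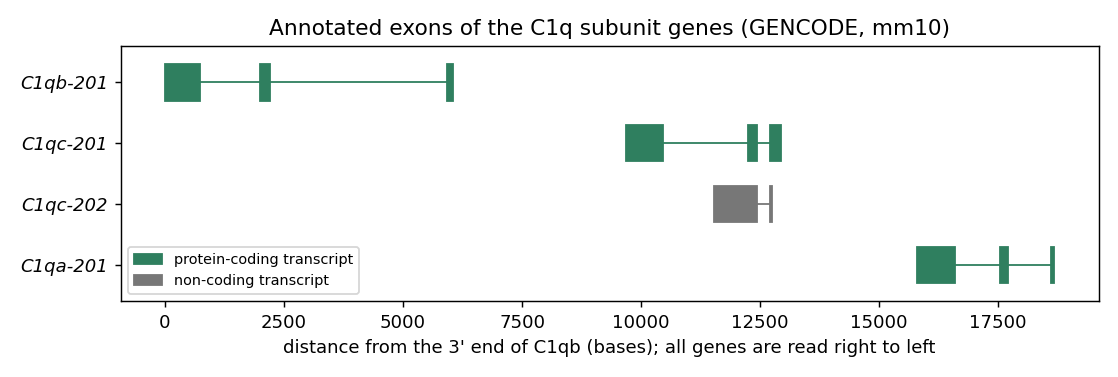
Annotated exons (boxes) and introns (lines) of the 4 transcripts of the C1q genes, by distance in bases from the 3′ end of C1qb. The grey box of C1qc-202 covers intron sequence of C1qc-201 and adds 728 bases to the length used for C1qc.

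The nearest neighbours of the cluster were too low to be tested, and neither of the flanking genes tested passed. Of the 4 nearest protein-coding genes on each side, 6 of 8 were too low to be tested. The receptor gene Ephb2, which ends 44141 bases from C1qb, reached at most 0.0979 TPM, and Epha8, which lies 30616 bases from C1qa, at most 0.165 TPM in any library. Kdm1a, a histone demethylase gene, stood at 14.1, 14.1 and 11.97 TPM in TREM2+ replicates 1, 2 and 3 and at 19.4, 17.5 and 12.3 TPM in TREM2- replicates 1, 2 and 3. Its log2 fold change was -0.26 ± 0.24 (adjusted p = 0.771, limma). For the GTPase gene Cdc42, at 854 to 889 TPM against 657 to 1028 TPM, it was 0.16 ± 0.24 (adjusted p = 0.865, limma). Kdm1a and Cdc42 lie 277406 and 420893 bases from the cluster.

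Set against genes of the whole macrophage lineage, C1q was higher in the TREM2+ libraries by nearly as much. The log2 of summed C1q minus the mean log2(TPM + 1) of 14 pan-macrophage genes was 3.78, 3.86 and 3.90 in TREM2+ replicates 1, 2 and 3 and 0.998, 1.203 and 2.15 in TREM2- replicates 1, 2 and 3. The difference of 2.39 ± 0.36, which is 5.25-fold, had p = 0.1 in an exact two-sided permutation test, the smallest possible. None of the 14 genes passed in limma in either direction, though at an unadjusted p under 0.05 there were 3 higher and 1 lower, and with voom 2 higher and 1 lower. Their median log2 fold change was 0.18, against -0.09 over all genes tested. Single genes ran from -1.02 to 1.82, the latter for Mertk (adjusted p = 0.056 in limma). Without overlap of the groups 5 of the 14 lay higher and 1 lower, against 9.07% and 7.62% of all genes tested. The summed level of the 14 genes went the other way. It was 53141 to 69030 (69029.6) TPM in the TREM2+ and 77133 to 94905 TPM in the TREM2- libraries. Most of that sum was the lysozyme gene Lyz2, at 28336 to 37301 TPM in the TREM2+ and 55343 to 70509 TPM in the TREM2- libraries, with an adjusted p of 0.115.

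**Figure D4:**
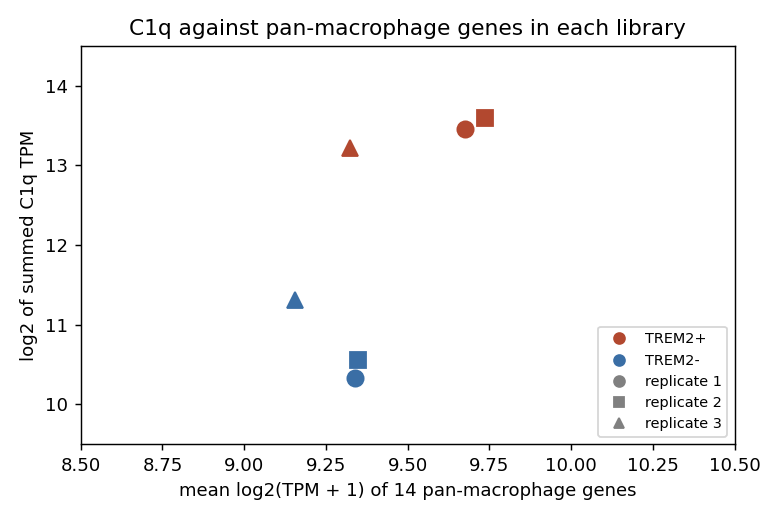
Log2 of the summed C1q TPM against the mean log2(TPM + 1) of 14 pan-macrophage genes, 1 point per library. The libraries span 9.16 to 9.74 on the x axis, with overlap of the groups, and separate on the y axis into 13.2 to 13.6 (TREM2+) and 10.3 to 11.3 (TREM2-).

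Genes of Kupffer cells, the resident macrophages of the liver, and of sinusoidal endothelium, which lines liver capillaries, were also higher in the TREM2+ libraries. The shares over all genes tested were 2.05% higher and 0.37% lower. Of 13 Kupffer cell genes 10 rose and 0 fell, with a median log2 fold change of 2.27, and their summed level was 1344 to 2418 TPM against 268 to 426 TPM. Of 13 endothelial genes 9 rose and 0 fell, with a median of 2.17 and a summed level of 562 to 783 TPM against 218 to 283 TPM. No member of either list fell at an unadjusted p under 0.05 or with voom, and none of their members was at 0 in all libraries. Cdh5, which stands on both lists, and Tek were under 1 TPM in each TREM2- library and entered the test through the TREM2+ libraries alone, so they could be called only as higher. Vsig4, Nr1h3 and Spic, described below, also stand on the Kupffer cell list. The order of libraries within a group differed between C1q and the Kupffer cell list. C1q was highest in TREM2- replicate 3, where the Kupffer cell list was lowest, and in TREM2+ replicate 2, where that list was also lowest. The list was summed with the repeat family included, which took 12.9% and 24.6% of the TPM in TREM2- replicates 2 and 3. Which of these libraries was lowest for the list, at 300 and 268 TPM, depends on that. Of 8 monocyte genes 1 fell (Ly6c2), with a summed level of 3361 to 29747 TPM in the TREM2+ and 12395 to 73403 TPM in the TREM2- libraries. Most of that sum was Chil3, at 1946 to 27674 TPM in the TREM2+ and 8002 to 69640 TPM in the TREM2- libraries. The median log2 fold change of the monocyte genes was -0.90, with 4 lower at an unadjusted p under 0.05 and 3 with voom. Of 6 genes of basophils and mast cells 3 fell (Prss34, Mcpt8 and Cpa3), from 117 to 214 TPM in sum to between 17.01 and 26.7 TPM. Genes of T and NK cells summed to 811 to 963 TPM in the TREM2+ and 1313 to 3134 TPM in the TREM2- libraries, and none of the 8 passed in limma, with 3 lower at an unadjusted p under 0.05 and 0 with voom. Of 8 dendritic cell genes 1 fell (Ccr7), with a summed level of 56.3 to 73.1 TPM against 94.8 to 255 TPM. The part of any of these cell types in the C1q difference was not tested.

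The partners of C1q in the cascade were far lower in level. Of the 13 genes of the C1 proteases and the early classical and lectin pathways 8 could be tested. Of these 2 rose, 0 fell and 6 did not pass, with a median log2 fold change of 0.35. Over all genes tested 2.05% rose and 0.37% fell, with a median of -0.09. The counts of the lists that follow stand beside the same shares. C1ra, the protease that is activated first in the C1 complex, stood at 16.3, 13.5 and 14.3 TPM in TREM2+ replicates 1, 2 and 3 and at 8.17, 5.35 and 4.07 TPM in TREM2- replicates 1, 2 and 3. Its groups did not overlap, and its log2 fold change of 1.23 ± 0.27 did not pass (adjusted p = 0.0508 in limma). C1s1, C1s2 and C2 were too low to be tested. C4b, the substrate of C1s, rose by 1.27 ± 0.26, a call that held in 1 of 6 fits that leave out 1 library, the one without TREM2- replicate 2. The lectin pathway protease gene Masp1 rose by 1.37 ± 0.25 from under 1 TPM in each TREM2- library, so it entered the test through the TREM2+ libraries alone. The central component C3 had a log2 fold change of -0.42 ± 0.29.

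Among 15 tested receptors for C1q or for fragments of the cascade, 2 rose, 0 fell and 13 did not pass, with a median log2 fold change of 0.45. Vsig4, the receptor of Kupffer cells for C3 fragments, rose from 47.3 ± 8.83 to 332 ± 114 TPM (SD, n = 3), a log2 fold change of 2.75 ± 0.29. C3ar1, the receptor for C3a, stood at 212, 182 and 135 TPM in TREM2+ replicates 1, 2 and 3 and at 46.3, 59.1 and 51.9 TPM in TREM2- replicates 1, 2 and 3, a rise of 1.71 ± 0.24. Both calls held in 6 of 6 fits that leave out 1 library. Scarf1, a scavenger receptor that binds C1q on dying cells, differed by 1.05 ± 0.23 on the log2 scale and C5ar2, a receptor for C5a, by 0.89 ± 0.24, neither passing. Lair1, an inhibitory receptor for collagen-like stalks, stood at 83.3, 88.8 and 61.8 TPM against 51.3, 47.3 and 43.7 TPM, without overlap and without passing (adjusted p = 0.196 in limma).

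Of 9 tested complement regulators 1 rose, 0 fell and 8 did not pass, with a median log2 fold change of 0.30. The gene that rose was Cd59a, which blocks the membrane attack complex at the end of the cascade, from 4.87 ± 0.855 to 23.7 ± 5.1996 TPM (SD, n = 3). Its call held in 6 of 6 fits that leave out 1 library. Cfp, which encodes properdin, the stabiliser of the alternative pathway, stood at 917, 874 and 824 TPM against 399, 555 and 440.1 TPM, a log2 fold change of 0.92 ± 0.22 with an adjusted p of 0.0737 in limma. The surface regulator Cd55 had a log2 fold change of 1.17 ± 0.39 and did not pass.

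Few other genes with a C1q domain could be tested. Of 26 other genes with that domain 20 were too low to be tested, and of the 6 tested 2 rose, 0 fell and 4 did not pass, with a median log2 fold change of 0.20. C1qtnf1 rose from 0.724 ± 0.298 to 5.84 ± 1.35 TPM (SD, n = 3), and Mmrn2, an endothelial matrix gene, from 0.358 ± 0.229 to 3.46 ± 0.326 TPM. Mmrn2 reached 1 TPM in 0 TREM2- libraries, so it passed the low-value filter only through the TREM2+ libraries and could be called only as higher. It could be tested in 3 of 6 fits that leave out 1 library, and its call was lost without TREM2- replicate 3 (adjusted p = 0.0503 in limma). C1qtnf1 reached 1 TPM in 1 TREM2- library. Emilin2, the most abundant of these genes, had -0.30 ± 0.27 and C1qtnf12 had -0.32 ± 0.25.

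Of 14 transcription factors listed as regulators of C1q or of macrophages, all were tested, 4 rose, 0 fell and 10 did not pass, with a median log2 fold change of 0.57. Maf, at 6.77 to 10.96 TPM in the TREM2+ and 2.24 to 2.75 TPM in the TREM2- libraries, rose by 1.45 ± 0.25. The oxysterol receptor gene Nr1h3 rose by 1.91 ± 0.32 and Spic, a factor of iron-recycling macrophages, by 2.43 ± 0.43. Of the 6 fits that leave out 1 library, Maf passed in 3, and Nr1h3 and Spic in 4. These 3 calls were lost without TREM2- replicate 3, with adjusted p-values of 0.0871, 0.0831 and 0.111 in limma. Spi1, which encodes PU.1, had a log2 fold change of -0.13 ± 0.23, and Irf8 had 0.09 ± 0.23.

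**Figure D5:**
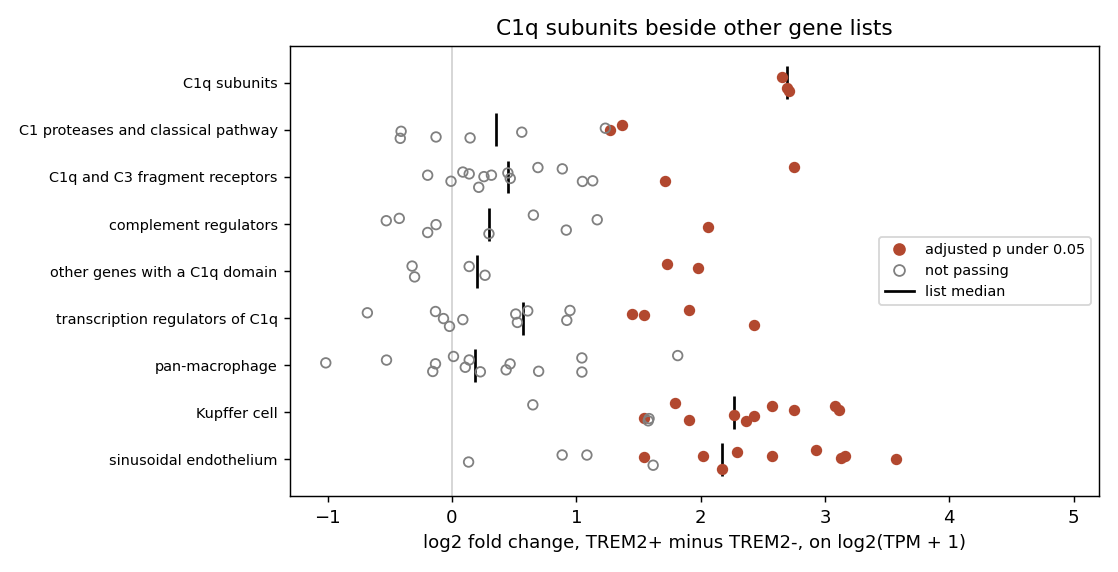
Log2 fold change on log2(TPM + 1), TREM2+ minus TREM2-, of the C1q genes and of the tested members of 8 other lists, 1 point per gene, filled where the adjusted p is under 0.05, with list medians as bars. The 3 C1q genes lie between 2.66 and 2.71, and the medians of the complement lists between 0.20 and 0.45.

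The genes whose log2(TPM + 1) followed the mean of the 3 C1q genes most closely over the 6 libraries were outside the complement lists. By Pearson's r over 8106 genes with a mean of at least 5 TPM, they were Ccl24 (0.998), Tceal9 (0.994), Ptgs1 (0.993), Cxcl14 (0.992), Mrc1 (0.992), Gatm (0.991), Vcam1 (0.989), Rab3il1 (0.988), Mmp12 (0.987) and Gdpd1 (0.986). The points share the 2 groups and the libraries' composition, and 2.42% of the genes ranked had an r of at least 0.9. Among themselves the C1q genes had an r of 0.995 (C1qb with C1qa), 0.992 (C1qc with C1qa) and 0.999 (C1qb with C1qc). Trem2 had an r of 0.968 with their mean.

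Ccl24, an attractant of eosinophils, stood at 309, 295 and 263 TPM in TREM2+ replicates 1, 2 and 3 and at 65.8, 67.3 and 101 TPM in TREM2- replicates 1, 2 and 3. As with C1q, TREM2- replicate 3 was the highest of its group, but the log2 fold change was smaller, at 1.90 ± 0.23. Mrc1, the mannose receptor of tissue macrophages, stood at 39.0, 33.9 and 24.4 TPM against 3.86, 4.69 and 6.78 TPM, a log2 fold change of 2.45 ± 0.27. Vcam1, an adhesion molecule also made by tissue macrophages, had a log2 fold change of 2.52 ± 0.33, and for Ptgs1, a prostaglandin synthase, it was 1.86 ± 0.25. Since these 10 genes were picked for following C1q over the same 6 libraries, a difference between the groups was set by the choice, and their values are a description.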

How the data were processed

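Polyadenylated RNA of 6 libraries was sequenced with paired ends, per the labels' protocols. Per the submitters' processing notes, STAR 2.7.10a, Subread, featureCounts 2.0.3 and mm10 were used. Annotation, strandedness and scaling formula were not given in the sources used here. Values in the table the authors deposited, named as TPM, are a length-scaled signal whose 6 columns together sum to 1000000. Each column was therefore rescaled to 1000000. Signal times exon length in GENCODE M21, matched by symbol for 53180 rows, gave whole reads, within 0.01 read in all libraries, for 98.7% of 36671 matched rows above 0. The labels mention no molecular identifiers, so counting intervals cover counting error only.

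limma 3.58.1 under R 4.3.3, with its trend option, tested log2(TPM + 1) of the 13788 genes that reached 1 TPM in 3 or more libraries, in two-sided tests, adjusted by Benjamini-Hochberg (threshold 0.05). The fit was also run on simulated data as a self-test, and no result here rests on that run. Ratios used exact permutation tests over libraries. Named were the 3 members, Trem2, up to 4 members of each complement list by smallest p, the 10 genes most correlated with C1q, and the flanking genes. Lair1, Irf8, Spi1, Adgre1, Cdh5, Lyz2, Mertk, Cd68, Csf1r, Tek, Ccr7, Ly6c2, Chil3, Camp, Prss34, Mcpt8 and Cpa3 were named after their values were seen. The members and lists were chosen with earlier results of these data known. Alternatives covered the pseudocount, filter, scaling, block, trend, weights, voom and left-out libraries. The length of the coding transcript was added after seeing the data. Some list members named by the rule are not reported here.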

Additional observations from a re-analysis of the deposited data

How the results depend on the processing

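Over 20 other fits, the log2 fold changes of C1qa, C1qb and C1qc ranged from 2.50 to 3.12, 2.48 to 3.09 and 2.43 to 3.01, and each gene passed in 19. With 1 library left out they were 2.50 to 3.03, 2.48 to 2.98 and 2.43 to 2.91. The fit that ended the calls, without both libraries numbered 3, left 2 libraries a group (3.12, 3.09 and 3.01). In limma 0 genes were then called higher, against 636 at an unadjusted p under 0.05, and 0 members of each complement list and of the transcription factors.

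Trem2 passed with library weights (0.90) and voom (0.87). The 282 genes called higher became 95 without a low-value filter, 116 with the replicate block, 976 with library weights, 444 with voom and 116 to 342 with 1 library left out (148 and 153 when TREM2+ replicate 1 or 3 was dropped, 116 when TREM2- replicate 3 was).

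Of the classical and lectin pathway genes 2 were called higher (C4b and Masp1), and 1 with a pseudocount of 0.1 or 5 or without mitochondrial genes. There were 0 without a low-value filter, on deposited values or with the replicate block, and 0 to 2 with 1 library left out. At an unadjusted p under 0.05 those settings that keep all libraries gave 3. The 2 receptors became 5 with median-of-ratios scaling, quantile normalization or library weights and 4 with voom. The 1 regulator became 4 with library weights, 2 with voom and 1 to 2 with 1 library left out. The 2 other C1q domain genes became 1 without a low-value filter or with the replicate block, 0 at 5 TPM or more, where neither was tested, and 1 to 2 with 1 library left out. The 4 transcription factors became 0 without a low-value filter (6 at an unadjusted p under 0.05), 2 on deposited values or without the repeat family, 1 with the replicate block, 7 with library weights and 0 to 5 with 1 library left out (0 without TREM2- replicate 3, with 4 at an unadjusted p under 0.05). The cause of these shifts was not tested.

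With 1 library left out, the group difference in the log2 ratio ranged from -0.11 to 0.12 for C1qb over C1qa, where it turned to 0.00270 without TREM2+ replicate 3 and to 0.12 without TREM2- replicate 2. For C1qc over C1qa it ranged from -0.16 to 0.12, with 0.12 without TREM2- replicate 2. That of C1qb over C1qc stayed between 0.00212 and 0.0675 and that of C1q to pan-macrophage genes between 2.16 and 2.74. The level of C1qc over C1qb moved from 0.413 to 0.664 with the length of the coding transcript.

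Of 768 values for 39 other named genes, 654 kept direction and side of the threshold, 81 lost it, 27 gained it and 6 turned direction. These were Cdc42 with quantile normalization (-0.0437), Irf8 on deposited values (-0.00478) and without both libraries numbered 3 (-0.0432), and 3 with 1 library left out. Those ranged from -0.14 to 0.44 for Adgre1 (lowest without TREM2- replicate 2), from -0.0899 to 0.26 for Irf8 (lowest without TREM2- replicate 3) and from -0.26 to 0.0278 for Spi1 (highest without TREM2- replicate 1). The labels do not say if the replicate numbers pair the libraries, and 3 libraries per group cannot settle it. Same-numbered libraries deviated together with r of 0.188, -0.033 and 0.224 for numbers 1, 2 and 3. Libraries numbered 1 and 3 correlated best with their own number, and those numbered 2 did not. The share of the repeat family rose from number 1 to number 3 in both groups. With the replicate block all 3 C1q genes still passed, at adjusted p-values of 0.0419, 0.0407 and 0.0407 in limma. The median of all genes tested lay at -0.18 with voom, -0.17 on deposited values and -0.16 without the repeat family, against -0.09.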
